A study of Rattus norvegicus with 3 samples.

Results

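The annexins are proteins that bind phospholipid membranes when calcium rises. Each carries a core of repeats that holds the calcium sites, and a head region at its start that differs between members and binds partner proteins. They are known for roles in the repair of torn plasma membranes, in vesicle traffic, in the restraint of inflammation and in the activation of plasminogen at the cell surface, and ANXA11 is known for tethering RNA granules to lysosomes that move along axons. The members were taken by gene symbol (ANXA1 to ANXA8 and ANXA11), and all 9 are listed, 1 entry each, among the 12758 symbols and 12771 entries of the authors' table. ANXA9, ANXA10 and ANXA13, the other annexin genes looked for, have no entry in it.

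RNA came from the spinal cord of Sprague Dawley rats, all female and 3 months old. All animals had a laminectomy at T9; in the SCI group a contusion of the cord followed, and the No-SCI group had the laminectomy alone. About 2 mm of cord rostral to the lesion was excised at T8 after 24 h and digested at 6°C with a cold active protease, cells were pelleted, and total RNA of the supernatant was sequenced. By their labels, 2 libraries are No-SCI and 1 is SCI, although the methods speak of 2 animals in each condition.

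Every level below is an FPKM value (sequenced fragments scaled by transcript length and by library size), as the authors' Cuffdiff run gave it: 1 value per gene for No-SCI and 1 for SCI. For library size the paper names the total of mapped reads and also speaks of upper quartile normalization. No value per library and no read count was used, so the depth behind a value and the spread between animals are unknown, and no difference below was tested. The terms higher and lower compare the group values, and a gene was counted as past the fold when they differed at least 2-fold, a rule of size. All fold changes are SCI over No-SCI without a pseudocount. In this mixed tissue fraction, fewer cells of a type and less RNA per cell cannot be told apart.

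ANXA1, ANXA2 and ANXA8 were the 3 annexins at least 2-fold higher in SCI, out of 9, and no annexin was at least 2-fold lower. Over all entries 7.96% were at least 2-fold higher and 12.1% at least 2-fold lower. Without a minimum, 8 of the 9 annexins were higher in SCI, against 43.7% of all entries, and ANXA6 alone was lower, as were 56.3% of all entries. The median log2 ratio of the 9 was 0.55, and that of all 12771 entries was −0.12.

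ANXA2, which pairs with S100A10 into a complex that binds plasminogen and its activator at the cell surface, had 138 FPKM in No-SCI and 659.8 FPKM in SCI. It was 4.79-fold higher in SCI, a log2 ratio of 2.26, which ranked 155 among all entries. ANXA2 was the annexin with the highest level in SCI, while it was at place 5 of the 9 in No-SCI. The reference annotation holds 1 pseudogene named after ANXA2, and how reads shared with such a copy were divided is not given in the sources used here.

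ANXA1, a glucocorticoid-responsive protein that acts on formyl peptide receptors of leukocytes and limits their recruitment, had 44.5 FPKM in No-SCI and 191 FPKM in SCI. This is a 4.29-fold higher level, with a log2 ratio of 2.10 at rank 192. Its level was at percentile 71.3 of all No-SCI values and at percentile 91.6 of all SCI values.

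ANXA8, a member found on late endosomes and best known from epithelia, had 2.495 FPKM in No-SCI and 30.2 FPKM in SCI. The fold was 12.1 and the log2 ratio 3.60, at rank 27 of all entries. It was the least abundant annexin in both groups, at percentile 8.69 of the No-SCI values and percentile 65.2 of the SCI values. Its No-SCI value is close to 1, the lowest value of the whole table, so its ratio depends on how low values were treated: it was 3.16 on the log2 scale with a pseudocount of 1 and 4.29 with 1 subtracted from both values.

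**Figure D1:**
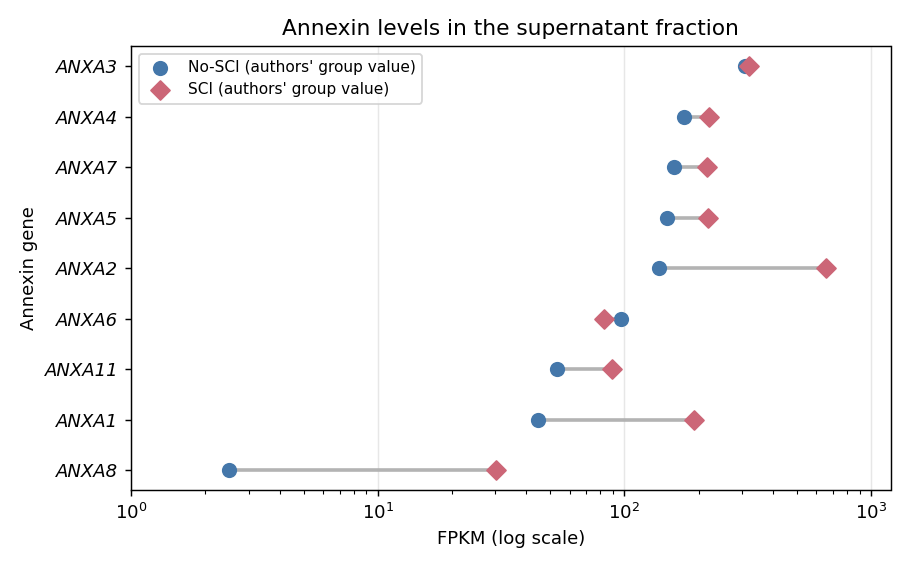
Level of each of the 9 annexin genes in FPKM on a log axis, ordered by the No-SCI level, with the authors' single group value for No-SCI (circle) and for SCI (diamond) joined by a line; there are no error bars because no value per library was used. ANXA8, ANXA1 and ANXA2 have the longest lines, from 2.495 to 30.2, from 44.5 to 191 and from 138 to 659.8 FPKM, while the points of ANXA3 nearly coincide at 307 and 320.4 FPKM.

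The promoters of these 3 genes are shown because they are the members that moved together past the fold. The letters are the 250 bases before the start that RefSeq gives each gene on the GRCr8 rat assembly, 5′ to 3′ on the gene's strand, and capitals mark matches to the 4 motifs searched on both strands: TGANTCA (the AP-1 element), the palindromic glucocorticoid response element, GGGCGG (the GC box) and TATAAA (the TATA element). The deposited levels were made on rn6, another assembly, and these coordinates belong to GRCr8 only.
ANXA1 promoter, chr1:227303733-227303982, minus strand: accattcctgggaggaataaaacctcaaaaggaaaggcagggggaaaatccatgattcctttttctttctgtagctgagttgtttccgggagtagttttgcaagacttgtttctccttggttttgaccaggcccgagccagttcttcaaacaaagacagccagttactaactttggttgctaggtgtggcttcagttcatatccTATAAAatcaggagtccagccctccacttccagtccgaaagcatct
ANXA2 promoter, chr8:78986002-78986251, plus strand: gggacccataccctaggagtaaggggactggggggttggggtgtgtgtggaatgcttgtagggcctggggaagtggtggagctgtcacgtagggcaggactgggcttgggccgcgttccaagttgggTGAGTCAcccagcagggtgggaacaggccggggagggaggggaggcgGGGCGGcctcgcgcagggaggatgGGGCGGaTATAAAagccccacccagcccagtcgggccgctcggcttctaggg
ANXA8 promoter, chr16:9403137-9403386, plus strand: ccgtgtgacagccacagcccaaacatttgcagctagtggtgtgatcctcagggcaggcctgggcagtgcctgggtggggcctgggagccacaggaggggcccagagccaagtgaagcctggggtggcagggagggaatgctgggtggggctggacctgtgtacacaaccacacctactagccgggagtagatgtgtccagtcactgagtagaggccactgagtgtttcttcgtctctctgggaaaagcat

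TATAAA lies 46 to 41 bases before the start in ANXA1 and 45 to 40 bases before it in ANXA2, and 12.9% of the 33469 promoter windows of the same length in the RefSeq table hold it. The ANXA2 window also holds TGAGTCA, a match to TGANTCA, from base 123 to base 117 before the start, and GGGCGG at 2 places. TGANTCA is found in 6.34% of all windows, GGGCGG in 30.5% and the glucocorticoid element in 0.373%. The ANXA8 window has no match to any of the 4 motifs, and no annexin window matched the glucocorticoid element. A match is a run of letters and does not show binding. The RefSeq span of ANXA1 begins 3007 bases before the start used here and that of ANXA8 120 bases before it. That of ANXA7 begins 1860 bases before it, ANXA5 239, ANXA11 107, ANXA3 81 and ANXA4 21. Other starts of these genes therefore exist, while the span of ANXA2 begins at the start used here. ANXA3, ANXA4, ANXA5, ANXA7 and ANXA11 were also matched in the table and ANXA6 was not. Among these 5, ANXA11 has 4 matches to GGGCGG, ANXA3 has 3, ANXA4 and ANXA5 have 1 each, and ANXA7 matched none of the motifs.

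The other 6 annexins stayed within 2-fold, with a largest log2 ratio of 0.74. ANXA11, the member that links RNA granules to lysosomes, had that ratio, from 53.5 FPKM in No-SCI to 89.5 FPKM in SCI (1.67-fold higher). ANXA5, which binds phosphatidylserine and serves as the common probe of dying cells, had 149 FPKM in No-SCI and 218 FPKM in SCI, 1.46-fold higher. ANXA7, once called synexin for its aggregation of secretory granules, had 159 and 215 FPKM, a fold of 1.35. For ANXA7 the reference annotation holds 4 pseudogenes, the most of any annexin here.

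ANXA4, which assembles into arrays on membranes, had 175 FPKM in No-SCI and 219.8 FPKM in SCI, 1.26-fold higher. ANXA3, first studied for its action on neutrophil granules, had 307 FPKM in No-SCI and 320.4 FPKM in SCI, a log2 ratio of 0.06 that places it at percentile 59.7 of all ratios. ANXA6, the member with a duplicated core, was the only one lower in SCI, with 96.8 FPKM in No-SCI and 82.5 FPKM in SCI, a log2 ratio of −0.23. A pseudocount cannot change a direction, and each scaling tried moved all ratios up, so only ANXA6 could have changed direction. ANXA6 stayed lower, with log2 ratios from −0.23 to −0.11 over these settings, and those of ANXA3 ran from 0.06 to 0.18.

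**Figure D2:**
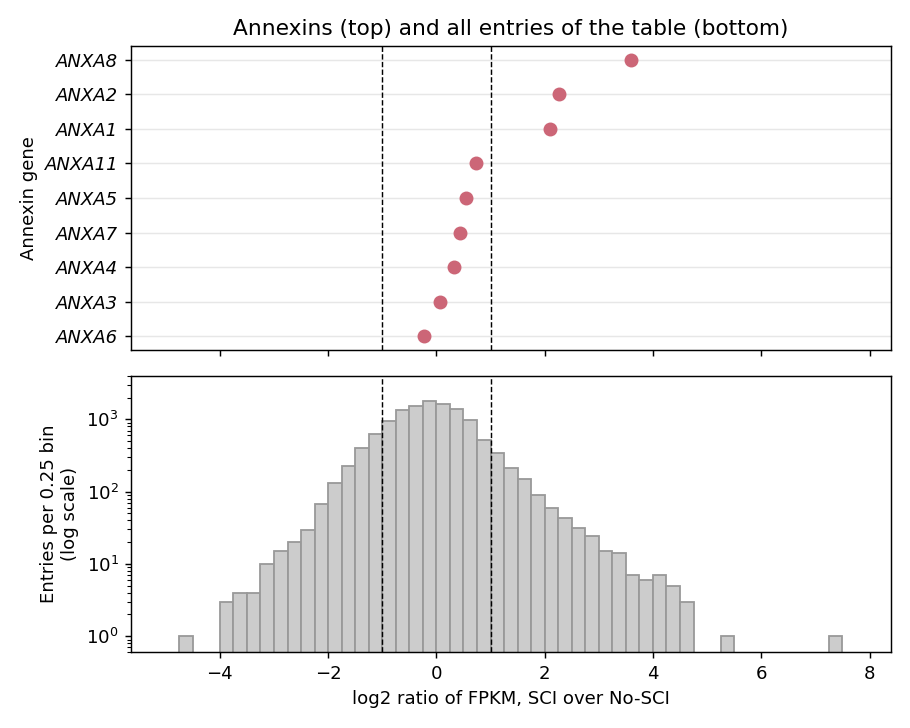
Log2 ratio of FPKM in SCI over No-SCI for each annexin (top, 1 point per gene) above the number of all 12771 entries in bins of 0.25 (bottom, log axis), with dashed lines at a 2-fold difference. ANXA1, ANXA2 and ANXA8, at 2.10, 2.26 and 3.60, lie in the upper tail of the table, and the other 6 annexins lie between −0.23 and 0.74.

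In No-SCI the order of the annexins by level was ANXA3, ANXA4, ANXA7, ANXA5, ANXA2, ANXA6, ANXA11, ANXA1 and ANXA8, over a range of 123-fold. In SCI it was ANXA2, ANXA3, ANXA4, ANXA5, ANXA7, ANXA1, ANXA11, ANXA6 and ANXA8, over a range of 21.9-fold. ANXA4, ANXA5 and ANXA7 lay between 215 and 219.8 FPKM in SCI, and with no spread known the order of such neighbours is not established. In No-SCI 8 of the 9 levels were above the median of all entries (17.2 FPKM), and in SCI all 9 were above it (15.6 FPKM).

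The summed level of the 9 annexins was 1125 FPKM in No-SCI and 2026 FPKM in SCI, 1.80-fold higher. ANXA2 supplied 58.0% of this net gain and ANXA1 16.3%. The share of ANXA2 in the sum was 12.2% in No-SCI and 32.6% in SCI, while that of ANXA3 was 27.3% in No-SCI and 15.8% in SCI. ANXA1, ANXA2 and ANXA8 together made up 16.4% of the sum in No-SCI and 43.5% in SCI. The other 6 summed to 941 FPKM in No-SCI and 1145 FPKM in SCI, a ratio of 1.22.

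**Figure D3:**
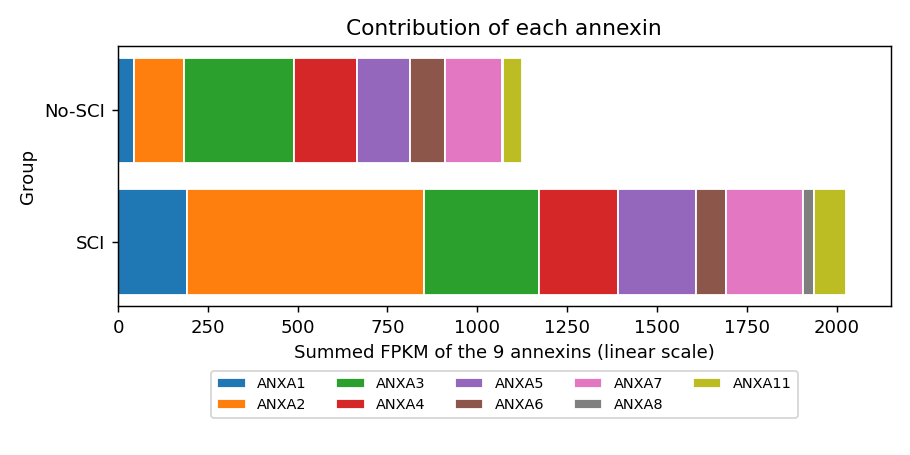
Summed FPKM of the 9 annexins in No-SCI and SCI on a linear axis that starts at 0, with each segment the authors' group value of 1 gene. The sum is 1125 FPKM in No-SCI and 2026 FPKM in SCI, and the ANXA2 segment is the largest in SCI, with 32.6% of the sum.

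Among 9 genes whose proteins bind annexins, all listed, 3 were at least 2-fold higher in SCI and none at least 2-fold lower. The shares over all entries were 7.96% and 12.1%. The list had a median log2 ratio of 0.69. S100A6, a calcium sensor that binds the head of ANXA11, had 782 FPKM in No-SCI and 6512 FPKM in SCI, 8.32-fold higher. AHNAK, a giant scaffold that the ANXA2 complex recruits to the membrane, had 37.5 and 116 FPKM, 3.10-fold higher. S100A11, the partner of ANXA1, had 403 FPKM in No-SCI and 1010.5 FPKM in SCI, 2.51-fold higher.

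S100A10, the partner of ANXA2, had 2386 FPKM in No-SCI and 3851 FPKM in SCI, a log2 ratio of 0.69. The level of S100A10 was therefore 17.3 times that of ANXA2 in No-SCI and 5.84 times in SCI. S100A4, which also binds ANXA2, had 5395 and 5028 FPKM, a log2 ratio of −0.10. For S100A11 and ANXA1 the ratio of levels was 9.05 in No-SCI and 5.29 in SCI. S100A6 stood at 14.6 times the level of ANXA11 in No-SCI and 72.8 times in SCI. These ratios compare transcript levels per length and say nothing of protein.

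FPR1, FPR2 and FPR3, the formyl peptide receptors through which ANXA1 acts, have no entry in the table. Of 10 genes known to be induced by glucocorticoids, as ANXA1 is, 8 are listed and all 8 were higher in SCI, 5 of them at least 2-fold. Over all entries 43.7% were higher, 7.96% at least 2-fold. The list had a median log2 ratio of 1.13. The part of glucocorticoids in the higher level of ANXA1 was not tested. CEBPD, a transcription factor that inflammatory signals also induce, had 18.6 FPKM in No-SCI and 163 FPKM in SCI, 8.73-fold higher. DUSP1, a phosphatase of MAP kinases, was 5.81-fold higher, and FKBP5, a co-chaperone of the glucocorticoid receptor, 4.99-fold higher. ZBTB16 and KLF9, both transcription factors, were 2.21-fold and 2.17-fold higher. TSC22D3, the gene of the leucine zipper protein GILZ, had 147 and 179 FPKM, a log2 ratio of 0.29, and ERRFI1 had 69.7 and 136 FPKM, a log2 ratio of 0.96. SGK1 and PER1 have no entry.

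Of 12 genes of the plasmin system, which the ANXA2 complex serves, 9 are listed, 2 of them at least 2-fold higher and 1 at least 2-fold lower. The shares over all entries were 7.96% and 12.1%, and counts this small cannot be told from them. PLAUR, the urokinase receptor, had 4.70 FPKM in No-SCI and 10.98 FPKM in SCI, a log2 ratio of 1.22. SERPINI1, the neuronal inhibitor of tissue plasminogen activator, had 4.80 and 1.66 FPKM, a log2 ratio of −1.54. PLAT, the tissue activator that ANXA2 binds, had 32.6 and 30.9 FPKM, and the plasminogen gene PLG has no entry. The most abundant listed genes were ENO1 with 3846 and 3608 FPKM, SERPINE2 with 177 and 235 FPKM and PLGRKT with 51.9 and 62.9 FPKM. For the list the median log2 ratio was −0.08, and it changed sign under median centring (0.040) and upper quartile scaling (0.025).

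Of 18 genes of plasma membrane repair, the process in which several annexins seal wounds, 15 are listed, and 14 of them stayed within 2-fold. Among all entries 7.96% were at least 2-fold higher and 12.1% at least 2-fold lower. MYOF, a ferlin of membrane fusion, was 2.11-fold higher, from 5.26 to 11.1 FPKM, while its relative DYSF had 14.9 and 12.8 FPKM. CHMP2A and TSG101, of the ESCRT machinery that buds and cuts membranes, had 368 and 233 FPKM in No-SCI and 452 and 215 FPKM in SCI. CAVIN1, a coat protein of caveolae, had 158 and 306 FPKM, a log2 ratio of 0.96. The list had a median log2 ratio of −0.12.

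Of 19 genes that expose or recognise phosphatidylserine, the lipid that ANXA5 binds, 13 are listed, with 1 past the fold in each direction. This is near the shares over all entries, 7.96% higher and 12.1% lower. PLSCR1, a scramblase gene that interferon also induces, had 10.7 FPKM in No-SCI and 44.6 FPKM in SCI, 4.15-fold higher. TYRO3, a receptor for bridging proteins on that lipid, had 9.93 and 4.10 FPKM, a log2 ratio of −1.27. By the mean of the 2 group values, the most abundant listed genes were TMEM30A, AXL and PLSCR1. TMEM30A, the chaperone of lipid flippases, had 55.8 and 37.4 FPKM, and AXL, a relative of TYRO3, had 39.5 and 22.5 FPKM. PLSCR1 owes its place to its SCI value, and in No-SCI it was below PROS1, among others, which had 23.2 FPKM. The log2 ratios of the list had a median of −0.35.

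Of 13 genes of RNA granules and of the lysosomes that carry them, the cargo and the carrier that ANXA11 joins, 12 are listed. None was past the fold in either direction, against 7.96% of all entries higher and 12.1% lower. RAB7A, a GTPase of late endosomes and lysosomes, had 341 FPKM in No-SCI and 221 FPKM in SCI, and TARDBP, an RNA-binding protein of granules, had 253 and 276 FPKM. Of the 12, 9 were lower in SCI, with a median log2 ratio of −0.37. Over all entries 56.3% were lower, with a median of −0.12. ANXA11 itself was 1.67-fold higher, and a link between these levels was not tested.

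**Figure D4:**
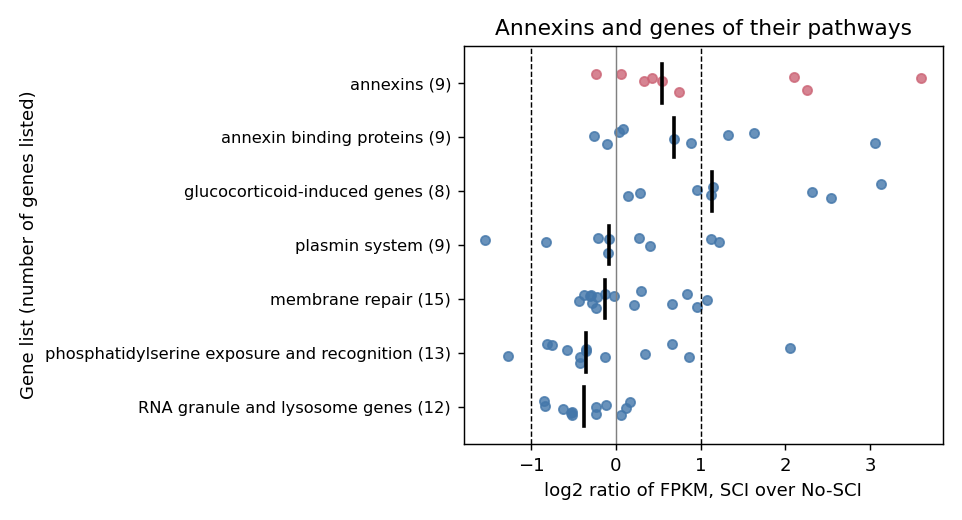
Log2 ratio of FPKM in SCI over No-SCI for the annexins and 6 lists of genes of their pathways, with 1 point per listed gene (spread vertically at random for view), a black bar at the median of each list and dashed lines at a 2-fold difference. The glucocorticoid-induced genes all lie above 0 with a median of 1.13, and the 12 RNA granule and lysosome genes all lie within 2-fold.

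The levels of cell type markers differed between the groups along with those of the annexins. Over all entries 43.7% were higher in SCI, 7.96% at least 2-fold, and 56.3% were lower, 12.1% at least 2-fold. The marker lists, like the other lists, were chosen with earlier results of these data known. Of 16 genes of meningeal fibroblasts, 13 are listed, and all 13 were higher in SCI, 12 of them at least 2-fold. Their summed level was 95.4 FPKM in No-SCI and 965 FPKM in SCI, 10.1-fold higher, and SLC22A6, DPEP1 and LAMA1 of that list have no entry. CRABP2 had 17.3 and 382 FPKM, DCN 15.1 and 156 FPKM, and OSR1 3.43 and 148 FPKM. These 3 have the highest mean of the 2 group values, and OSR1 owes its place to its SCI value. PDGFRA had the smallest log2 ratio of the list, 0.70, with 13.0 and 21.1 FPKM. The 4 Schwann cell genes summed to 68.3 FPKM in No-SCI and 104 FPKM in SCI, and NCMAP of that list is listed at 1 in No-SCI. The part of these cells in the higher levels of ANXA1, ANXA2 and ANXA8 was not tested.

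The neutrophil list has 4 of its 10 genes in the table, 3 of them at least 2-fold higher, and its summed level was 64.9 FPKM in No-SCI and 152 FPKM in SCI. S100A8 had 32.4 and 94.1 FPKM, S100A9 had 14.3 and 46.6 FPKM, CSF3R had 17.1 and 8.97 FPKM, and the granule genes MPO, ELANE, MMP8, NGP, CAMP and LTF have no entry. The 16 listed of 17 microglia and macrophage genes were divided, with 3 at least 2-fold higher and 3 at least 2-fold lower, and their sum was 1274 FPKM in No-SCI and 1464 FPKM in SCI. Of 11 endothelial genes 8 are listed, 5 of them higher (2 at least 2-fold) and 3 lower within 2-fold, with sums of 52.0 and 73.9 FPKM. Of 10 mural genes 9 are listed, 5 of them higher within 2-fold and 4 lower (1 at least 2-fold), with sums of 449 and 567 FPKM. Most of the mural sum came from TAGLN, with 383 and 517 FPKM.

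Most oligodendrocyte and astrocyte markers were lower in SCI. Of 12 listed oligodendrocyte genes 11 were lower, 8 of them at least 2-fold, and ASPA was higher, with 238 and 319 FPKM. The list summed to 52676 and 30335 FPKM, most of it from MOBP with 44200 and 27648 FPKM. Of 6 listed astrocyte genes 5 were at least 2-fold lower, with sums of 230.4 and 119 FPKM, and GJB6 was higher, with 41.7 and 48.9 FPKM. GFAP, AQP4, SLC1A3, S100B and ALDOC of the astrocyte list, MBP of the oligodendrocyte list and SNAP25 and NEFM of the neuron list have no entry. Of the 9 listed neuron genes 7 were lower, 3 of them at least 2-fold, and 2 were higher within 2-fold, with sums of 1592 and 1599 FPKM, most of it from GAP43 with 1275 and 1406 FPKM. The 4 listed sensory neuron genes stayed within 2-fold, with sums of 121 and 126 FPKM, and of 4 listed ependymal genes 1 was at least 2-fold lower, with sums of 20.7 and 13.5 FPKM. Of 7 listed skeletal muscle genes 6 were at least 2-fold lower in SCI, with sums of 416 FPKM in No-SCI and 41.9 FPKM in SCI. The part of muscle RNA in the annexin levels of No-SCI was not tested. Of the other marker lists, CTSS, PECAM1, TEK, TIE1, NOTCH3, FOXJ1, PIFO, SPAG6, DNAH6, SCN9A, SCN10A and ACTN3 have no entry.

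**Figure D5:**
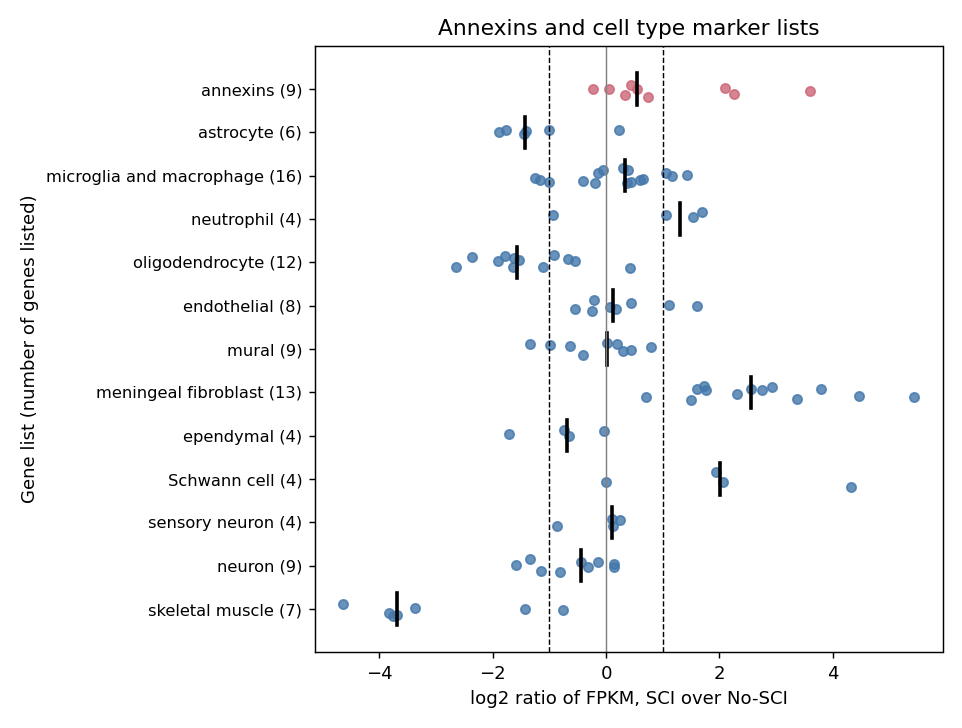
Log2 ratio of FPKM in SCI over No-SCI for the annexins and 12 cell type marker lists, with 1 point per listed gene (spread vertically at random for view), a black bar at the median of each list and dashed lines at a 2-fold difference. The 13 meningeal fibroblast genes all lie above 0 with a median of 2.56, the 7 skeletal muscle genes all lie below 0 with a median of −3.68, and the annexins have a median of 0.55.

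The entries whose pair of group values lay nearest to that of ANXA8, the annexin with the largest log2 ratio, were CCN2, WNT4 and IGFBP3. Nearness was the Euclidean distance of log2 FPKM over the 2 group values. CCN2, a matricellular growth factor, had 2.34 and 23.0 FPKM at a distance of 0.40. WNT4, a secreted Wnt ligand, had 1.87 and 33.3 FPKM at 0.44, and IGFBP3, which binds insulin-like growth factors, had 3.27 and 25.8 FPKM at 0.45. With only 2 values per gene this likeness describes level and ratio and no finer pattern.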

How the data were processed

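Total RNA of the supernatant was freed of ribosomal RNA and sequenced from strand-specific libraries. Reads were downsampled by the authors to the depth of the smallest library, aligned to rn6 with STAR 2.5.4b and passed to Cuffdiff 1.3.0 (versions per the submitters' processing notes). The FPKM values the authors deposited, scaled to the upper quartile, number 1 per group in each of 12771 entries, and none lies below 1. The authors' fold changes, p-values and q-values in the same table were not used. The group of each column came from the file, and 0 columns lacked one. Without counts or values per library, no depth, interval or replicate test could be given.

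Log2 ratios were computed without a pseudocount, with a fold of 2 as the rule of size. Of 13 symbols listed more than once, the entry with the larger mean stood for the gene. Genes named are the 9 annexins, from each pathway list the 3 with the highest mean level and those past the fold, from the marker lists those absent and, where a list differed most, some of the 3 most abundant, and the 3 entries nearest to ANXA8. A few genes that this rule selects are not reported here. PLAT, DYSF, NCMAP, ASPA, GJB6, PROS1, PDGFRA, MOBP and TAGLN were chosen after their values were seen. The members and lists were chosen with earlier results of these data known. Alternatives were pseudocounts of 1 and 0.1, subtracting 1, 3 scalings, folds of 1.3 and 4, a mean of at least 5 FPKM, list means and summed entries. The ratio and motif steps were tested on simulated data. Promoters came from the RefSeq table of GRCr8, in which 8 of the 9 annexins matched; protein features were not analysed here. Of the 9 annexins, 7 have a value of more than 6 digits. Whether values were summed over entries, or a constant of 1 was added, before deposit is not given in the sources used here. The first would limit comparisons of level between genes, and the second would make the ratios of low genes such as ANXA8 too small. Python 3.11.15 with numpy 2.4.6, pandas 2.3.3 and matplotlib 3.10.9 was used.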

Additional observations from a re-analysis of the deposited data

How the results depend on the processing

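The 3 annexins at least 2-fold higher in SCI stayed 3 under both pseudocounts, with 1 subtracted, under each scaling and at a fold of 4. No annexin was at least 2-fold lower in any of these. Subtracting 1 and the scalings raised the ratios of these 3, so those settings could only have added to the count. Summed entries and a mean of at least 5 FPKM could not change the count. Each annexin has 1 entry and a mean above 5 FPKM. A fold of 1.3 moved the count to 6 higher annexins. At that fold 24.6% of all entries were higher and 35.7% lower, and at a fold of 4 the shares were 1.69% and 1.21%. The median log2 ratio of the annexins ran from 0.55 to 0.67 over the pseudocounts, scalings and other treatments of the values, and was 0.49 without ANXA8, an alternative chosen after seeing the data. Subtracting 1 and then scaling to the same upper quartile, also chosen after seeing the data, left 3 annexins higher.

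Median centring moved every log2 ratio up by 0.12, upper quartile scaling by 0.10 and scaling to the same total by 0.05. Among the lists, the median of the plasmin system turned to 0.040 under median centring, 0.025 under upper quartile scaling, 0.032 as a mean and 0.34 at a mean of at least 5 FPKM. As means, the lists of membrane repair, mural and sensory neuron genes turned to 0.12, −0.18 and −0.10, and the mural median was −0.40 at a mean of at least 5 FPKM. Why these turned was not tested. No paired analysis was possible because the labels give the groups no shared replicate numbers and no value per library was used, and for the same reason no library was left out in turn. Depth is unknown, so low values such as that of ANXA8 in No-SCI carry an unknown counting error.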
